A study of Mus musculus with 3 samples.

Results

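Nodal and Activin signalling was described in PD-treated J1 mouse embryonic stem cells (mESCs) through 10 genes: Nodal, Lefty1, Lefty2, Cer1, Acvr1b, Acvr2a, Acvr2b, Smad2, Smad3 and Smad7. The genes were chosen by name, as ligand, secreted inhibitors, receptors and intracellular SMAD proteins of the pathway, and every probe whose transcript accession belongs to 1 of them was used. They make up 10 of the 20660 genes that could be named on the array and are read by 12 of its 55681 probes. Acvr2a and Smad3 have 2 probes each, the other 8 genes have 1 probe, and each probe is printed on 1 spot per array.

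PD0325901 (PD) is a small molecule that inhibits MEK, the kinase that activates ERK. All samples came from the mESC line J1 of strain 129S4/SvJae, which the labels trace to the inner cell mass, kept without feeders on gelatin with LIF at 1000 U/mL and given 1 µM PD for 24 h. There were 3 samples, replicates 1 to 3 of 1 group, and by the methods they are independent experiments on this single line. Cells without PD were not analysed here, so no effect of PD on any gene was measured and no p-value was computed.

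Nodal and the Activins are ligands of the TGF-beta family. They bring together type II receptors (Acvr2a, Acvr2b) and type I receptors such as Acvr1b, which phosphorylate Smad2 and Smad3, and these enter the nucleus with Smad4 to act at target genes. Nodal also needs a co-receptor of the Cripto family, and its own targets include the inhibitors Lefty1 and Lefty2, which makes the pathway a feedback loop. In the mouse embryo it is known for patterning the epiblast and for inducing mesendoderm, and in mESC cultures it is known to be active under self-renewing conditions.

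The arrays were alike in depth. The 75th percentile of the processed signal (the scanner's background-subtracted spot intensity) was between 577 and 620, and the lowest signals flagged well above background were 10.1 to 11.4, though some brighter spots were not flagged so. Probes were well above background in 63.1% to 65.2% of cases per array, no spot was saturated, and the arrays shared 1 slide and 1 scan. Replicate 2 carried more spots marked as non-uniform, 187 against 25 and 8. In 6 of 48 blocks at least 1 array had 10 or more such spots. No spot of the 12 probes lay in those blocks or had an outlier flag. The cell type was checked against markers. All 8 embryonic stem cell markers were well above background on each array, with summed signals, scaled to 1 array percentile, of 117409 to 126536. The sums hide departures on replicate 2 in opposite directions. On replicates 1 to 3 Pou5f1 had signals of 11265, 16872 and 10239, and Sox2 had 6453, 4835 and 6827. The other markers, such as Nanog at 695, 690 and 689, varied less between arrays. Of 8 fibroblast markers 4 (50%) were detected on all arrays, against 72.7% of all named genes. Sums over the 8 were 1332 to 1394, and those detected were Col1a1, Col1a2, Thy1 and S100a4. Lum, Postn, Col5a2 and the dimmer probe of S100a4 were not well above background on any array, and Col3a1 was so on replicate 3 alone. The part of other cell types in the results was not tested. Primitive endoderm markers were detected in 8 of 8 cases, as stem cell markers were, so the counts alone do not tell these cell types apart. The sums for primitive endoderm were 92031 to 93356, most of it from Sparc. In bulk RNA, fewer cells with a transcript and less transcript per cell cannot be told apart.

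Below, a signal is the processed signal in scanner units. A level is its log2 value minus the 75th percentile of the array, so that a level of 0 is that percentile. A gene was called detected if its brightest probe was well above background on all 3 arrays. Levels of different probes also depend on the probe sequence and are not ranked against each other.

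Of the 10 genes, 9 were detected, against 72.7% of all named genes, and 11 of the 12 probes were. The exception was Cer1. The share is not read as particular to the pathway, since the genes are few and were chosen by name.

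**Figure D1:**
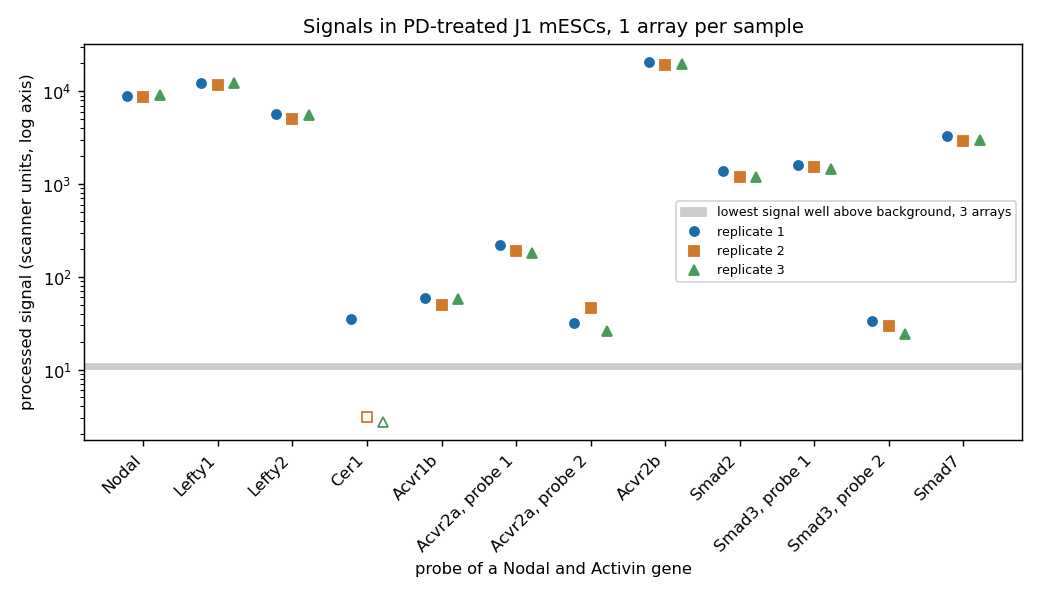
Processed signal (scanner units, log axis) of the 12 probes on the 3 arrays, 1 symbol per array, with filled symbols for spots well above background and hollow ones for the rest; probe 1 is the brighter probe of a gene, and the grey band spans the lowest signals well above background (10.1 to 11.4). Cer1 is filled on replicate 1 only, at 35.2, and all other probes are filled on each array.

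To show the DNA in front of genes that were and were not detected, the 250 bases upstream of the annotated start are printed for Nodal and Cer1, the ligand that was detected and the inhibitor that was not, and for the receptor gene Acvr2a, whose window held the most CpG sites of the 6 genes with a window used. The sequences are from RefSeq on GRCm38.p6, 5′ to 3′ on the strand of the gene, and capitals mark CpG dinucleotides, the sites of DNA methylation. Nodal lies at chr10:61417722-61417971 on the plus strand, Cer1 at chr4:82885152-82885401 on the minus strand and Acvr2a at chr2:48813859-48814108 on the plus strand.
Nodal: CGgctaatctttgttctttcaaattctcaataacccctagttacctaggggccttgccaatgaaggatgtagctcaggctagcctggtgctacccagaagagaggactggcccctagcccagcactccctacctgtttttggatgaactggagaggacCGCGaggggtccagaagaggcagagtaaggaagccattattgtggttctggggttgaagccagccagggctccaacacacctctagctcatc
Cer1: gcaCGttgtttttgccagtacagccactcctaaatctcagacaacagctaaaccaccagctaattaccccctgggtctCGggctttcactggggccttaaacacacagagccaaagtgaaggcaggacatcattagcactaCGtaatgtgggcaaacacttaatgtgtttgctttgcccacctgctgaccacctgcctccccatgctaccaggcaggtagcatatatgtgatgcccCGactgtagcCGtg
Acvr2a: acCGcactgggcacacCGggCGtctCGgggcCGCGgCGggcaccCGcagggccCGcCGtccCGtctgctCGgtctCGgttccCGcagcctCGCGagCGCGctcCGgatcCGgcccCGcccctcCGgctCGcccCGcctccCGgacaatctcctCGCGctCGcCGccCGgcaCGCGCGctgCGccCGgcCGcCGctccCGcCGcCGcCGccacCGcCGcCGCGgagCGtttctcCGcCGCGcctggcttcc

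The Nodal window held 3 CpG sites, the Cer1 window 5 and the Acvr2a window 49. The ratio of observed to expected CpG was 0.170 for Nodal, 0.309 for Cer1, 0.735 for Acvr2b, 0.794 for Smad3, 1.09 for Acvr1b and 1.23 for Acvr2a. Across the 13681 named genes with 1 such window the median ratio was 0.568. Detection rose with CpG content over these genes: with the windows in 4 equal parts by ratio, 36.6% of genes were detected in the lowest part, 63.3% in part 2, 88.9% in part 3 and 93.5% in the highest. Nodal was thus detected from a part in which most genes were not. Cer1 lay in part 2, and the 4 receptor and SMAD genes lay in the upper parts. This is a description over genes, which are not independent replicates, and methylation itself was not measured.

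**Figure D2:**
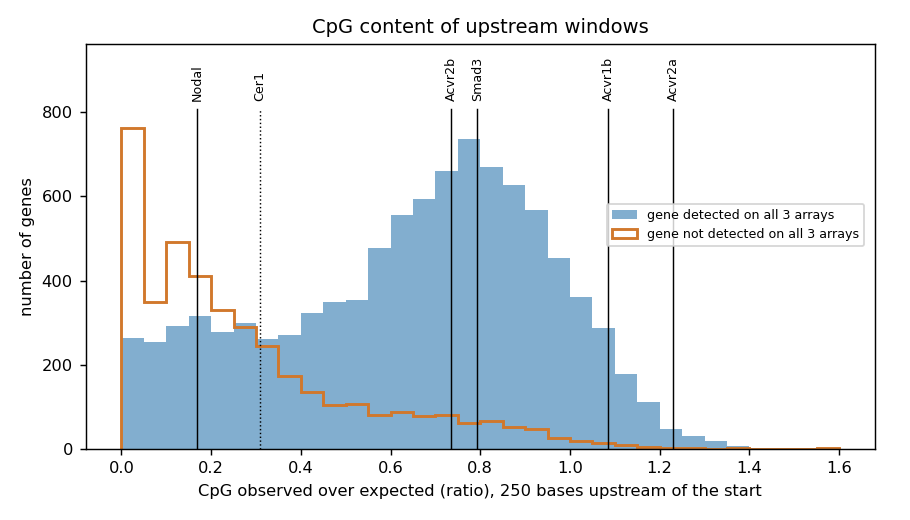
Number of genes (vertical axis) by the ratio of observed to expected CpG in the 250 bases upstream of the start (horizontal axis, no unit), for genes detected on all 3 arrays (filled) and not (outline). Lines mark the 6 pathway genes: Nodal at 0.170 and Cer1 at 0.309 (dotted, not detected) lie to the left, and Acvr2b, Smad3, Acvr1b and Acvr2a lie between 0.735 and 1.23.

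The same windows were searched on both strands for 3 motifs, none of which contains another. None of the 6 held the FOXH1 motif AATCCACA, found in 0.731% of the 13681 windows, the SMAD palindrome GTCTAGAC, found in 0.19%, or TATAAA, found in 12.6%. The absence of these letters says nothing of binding by the factors, whose known elements at such genes can lie outside the window.

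Nodal, the ligand itself, was bright on every array, with signals of 8996, 8801 and 9101 on replicates 1 to 3. Its levels were 3.86, 3.93 and 3.94, a mean of 3.91 ± 0.043 (SD, n = 3 here and below). The coefficient of variation (CV) of the signal was 1.7%, and the scanner's own error of a single spot was 880 to 910. The differences between arrays were thus smaller than the error the scanner gives for 1 spot. That error was 10% of the signal, as it also was for Lefty1 and Acvr2b. With 1 spot per array it is not a spread measured on repeated spots, so the comparison does not measure the noise of the arrays.

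Lefty1 and Lefty2 encode secreted proteins that block Nodal and its co-receptor and are themselves targets of Nodal. Lefty1 had signals of 12172, 11828 and 12361 and a level of 4.34 ± 0.043. Lefty2 had signals of 5656, 5023 and 5514 and a level of 3.18 ± 0.047. Replicate 3 had the highest level in both, as it did in Nodal. The lowest was replicate 1 in Nodal and Lefty1 and replicate 2 in Lefty2, all within 0.090 log2 units. Both genes lie on chromosome 1. The probe sequences were not used here, so whether transcripts of these closely related genes bind to each other's probe was not tested.

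Cer1 encodes Cerberus, a secreted inhibitor of Nodal and BMP. Its signals on replicates 1 to 3 were 35.2, 3.05 and 2.73, and only that of replicate 1 was well above background. Before background subtraction the spot had a raw median of 50 on replicate 1 and 20.5 on both others, beside local backgrounds of 16, 16 and 15. After scaling, the signal of replicate 1 was 2.87 times the lowest signal well above background on replicate 2 and 3.29 times that on replicate 3. The levels were -4.14, -7.56 and -7.77. The signals behind the last 2 were no larger than their spot errors of 3.06 and 2.74. Whether the scanner had replaced them by small positive values was not tested. The mean of -6.49 ± 2.04 thus rests on values near background and is a description only. With normexp background correction, which added an offset of 50 to each spot, the mean was -3.21 and the SD 0.25. A constant of that size narrows log2 differences between spots as dim as these. The smaller SD is therefore not credited to background treatment alone, and the part of the offset was not tested.

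Detection on a single array was found for 4.9% of all probes, 2729 in all, of which 1292 were on replicate 1. Among them 483 single-spot probes (17.7%) were at least as bright on their array as Cer1 was, 68 of them on replicate 1. The surroundings of the Cer1 spot, 74 probes within 5 rows and 5 columns, were also examined. On replicate 1, 8 of these (10.8%) lay more than 1 log2 unit above the mean of the other arrays, against 2.62% of all probes, and 3 were well above background there alone. None of the 74 did so on replicate 2 or 3, and no spot of the window was marked non-uniform. The part of the spot's position in the Cer1 signal was not tested.

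Acvr1b encodes ALK4, the type I receptor shared by Nodal and Activin. Its single probe had signals of 58.6, 49.5 and 57.0, well above background on each array, and a level of -3.44 ± 0.086. The range was 0.158 log2 units with replicate 2 the lowest, and no pair of arrays differed by more than 0.697 of the combined error of their spots.

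Acvr2a and Acvr2b encode the type II receptors, which bind the ligand first. The brighter probe of Acvr2a had signals of 222, 189 and 180 and a level of -1.61 ± 0.124. Its other probe had signals of 31.6, 46.5 and 26.2 and a level of -4.14 ± 0.454. The order of the arrays differed between the probes: replicate 1 was the highest on the brighter probe and replicate 2 on the dimmer one. On the dimmer probe replicate 2 was 1.83-fold above replicate 3 on the level scale, and this difference was 3.15 times the combined spot error. It was the only 1 of the 11 detected probes with a difference above 2 combined errors, against 10.4% of all detected single-spot probes. The ratio of the brighter to the dimmer signal was 7.04, 4.07 and 6.84. As the brighter probe did not share the departure of replicate 2, the measurement of Acvr2a on that array rests on which probe is read.

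Acvr2b had signals of 20764, 19255 and 19765 and a level of 5.06 ± 0.0060. The levels lay within 0.012 log2 units of each other. Such a small SD was found for only 0.884% of detected probes in the same of 4 equal parts by mean level. Before scaling to the percentile of each array, the CV of its signal was 3.85%.

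Smad2 and Smad3 are the receptor-activated SMADs of the pathway. Smad2 had signals of 1375, 1199 and 1193 and levels of 1.15, 1.06 and 1.00, a mean of 1.07 ± 0.074. The brighter probe of Smad3 had signals of 1602, 1543 and 1456 and a level of 1.36 ± 0.065. For both genes replicate 3 was the lowest.

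The dimmer probe of Smad3 had signals of 33.6, 29.4 and 24.4 and a level of -4.37 ± 0.213. Replicate 3 was again the lowest, by 0.407 log2 units from replicate 1, which was 1.58 combined spot errors. The 2 Smad3 probes differed in signal by 47.6, 52.5 and 59.8 times. Smad3 has 3 RefSeq transcripts and Acvr2a has 2, and the part of transcript choice and of probe sequence in the gaps between probes was not tested. Neither gene had 1 probe detected and the other not, whereas 17.8% of all genes with several probes did.

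Smad7 encodes the inhibitory SMAD, which is induced by the pathway and acts at the receptors. It had signals of 3309, 2954 and 2982, levels of 2.42, 2.36 and 2.33 and a mean level of 2.37 ± 0.046. Replicate 1 was the highest by 0.091 log2 units or less.

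Over the 9 detected genes, the SD of the level lay between 0.0060 and 0.124 log2 units with a median of 0.047. The median over all 14999 detected genes with a level on each array was 0.073. No detected probe of the 11 had a range above 1 log2 unit, against 1.86% of all detected probes. The SD falls with brightness on these arrays, from a median of 0.19 in the dimmest of these 4 parts to 0.058 in the brightest, and 5 of the 11 probes lay in the brightest part and 3 in the dimmest. Within their own part 7 of the 11 had an SD below the median. The order of the medians depended on the processing. Without replicate 2 it was 0.056 for the pathway genes and 0.051 for all genes, and with another background correction (normexp) 0.071 and 0.065.

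**Figure D3:**
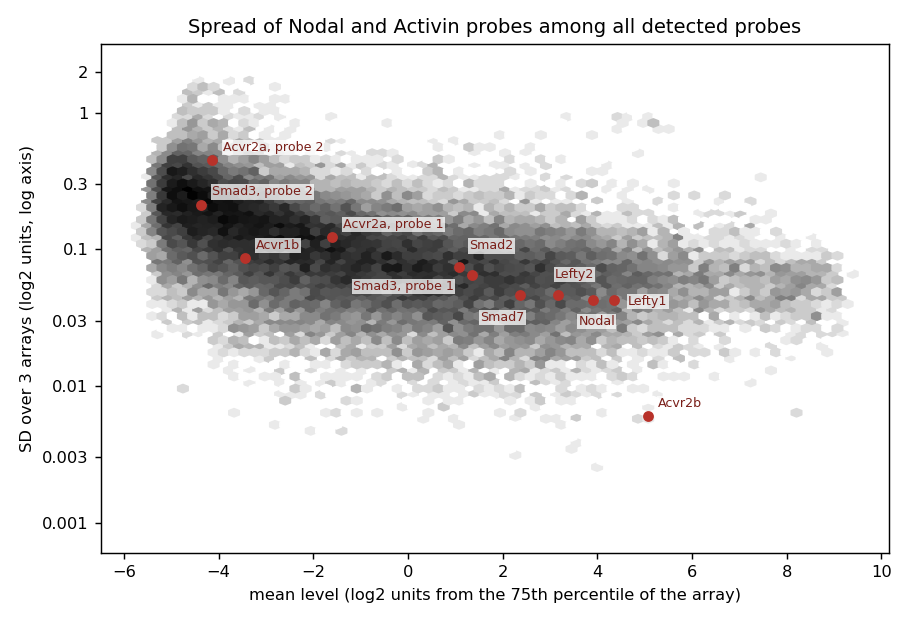
SD of the level over the 3 arrays (log2 units, log axis) against the mean level (log2 units from the 75th percentile), with all detected probes as hexagons shaded by their number and the 11 detected pathway probes as dots. The dots follow the fall of the SD with level, and Acvr2b lies lowest at 0.0060 and the dimmer probe of Acvr2a highest at 0.454.

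Across the 11 detected probes replicate 3 was the lowest in 7 and replicates 1 and 2 in 2 each. The highest was replicate 1 in 5, replicate 3 in 4 and replicate 2 in 2. Replicate 3 was the highest in Nodal, Lefty1, Lefty2 and Acvr1b and the lowest in both Acvr2a probes, Acvr2b, Smad2, both Smad3 probes and Smad7. These are orders within 1 group, mostly over differences below the spot error, and no difference between replicates was tested.

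The rest of the pathway was described through 45 other genes grouped by role, of which 40 (88.9%) were detected, against 72.7% of all named genes. Among the ligands 5 of 6 were. Signals below are those of a gene's brightest probe unless another is named. Gdf3, a Nodal-like ligand of the early embryo, had signals of 23912, 21209 and 22955, and Gdf1, which forms dimers with Nodal, had 2434, 2179 and 2288. The dimmer probes of these genes had 2213, 2184 and 2087 for Gdf3 and 30.0, 26.3 and 30.7 for Gdf1. The Activin subunit gene Inhbb had 2899, 2929 and 2908. Inhba had 2.17, 2.47 and 2.30, with spot errors of 100% of the signal, and did not pass on any array. Transcripts for the Activin B subunit were thus measured and those for the Activin A subunit were not detectable with this probe. Inhbc and Inhbe were detected at 128 to 138 and 98.2 to 112.

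All 5 listed inhibitors (Inha, Fst, Fstl3, Dand5 and Nomo1) were detected, with 315, 287 and 279 for Fst, which encodes the Activin-binding follistatin. So were both proprotein convertases that cleave the Nodal precursor, with 586, 593 and 544 for Furin and 2980, 2839 and 2847 for Pcsk6.

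Of the 2 co-receptor genes, Tdgf1, which encodes Cripto, had signals of 14904, 13706 and 15110 and a level of 4.61 ± 0.05, and all 3 of its probes were detected. Cfc1, which encodes Cryptic, had signals of 101, 43.1 and 39.8. Replicate 1 stood apart from both others for Cfc1, with a range of 1.29 log2 units and a difference of 5.24 combined spot errors. Of the 14999 genes, 11 lay more than 1 log2 unit above both other arrays on replicate 1, and Cfc1 was the only one of the 45. Such genes numbered 37 on replicate 2 and 8 on replicate 3. Around its spot 5 of 110 probes (4.55%) lay more than 1 log2 unit above the mean of the other arrays on replicate 1, against 2.62% of all probes, and 3.64% and 2.73% of the 110 did so on replicates 2 and 3. Cfc1 and Cer1 were thus both highest on replicate 1, each by 1 probe with 1 spot, and the part of that array in both was not tested.

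Among the other receptors 3 of 5 (60%) were detected, against 72.7% of all named genes. The TGF-beta type I receptor gene Tgfbr1 had signals of 1008, 917 and 1000, Tgfbr2 of 87.6, 75.9 and 91.2 and the accessory receptor gene Tgfbr3 of 219, 198 and 189. The dimmer probe of Tgfbr1 had 29.5, 31.6 and 32.6. A second probe of Tgfbr2 had 32.6, 20.6 and 13.2, and the brighter probe did not share the high value of replicate 1. Acvr1c, which encodes the alternative Nodal receptor ALK7, had 2.58, 2.92 and 2.71, and the decoy receptor gene Bambi had 2.37, 2.65 and 2.44. Their spot errors were 100% of the signal, so these values do not measure an amount. Neither passed on any array, so Acvr1b was the only detected type I receptor gene of Nodal and Activin among those listed.

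The shared SMAD gene Smad4 had signals of 6016, 5822 and 5588, and the other inhibitory SMAD gene Smad6 had 318, 324 and 299. Foxh1, which encodes the DNA-binding partner of Smad2 and Smad3 at Nodal targets, had 1500, 1477 and 1403 and a level of 1.29 ± 0.06. Skil, a repressor of SMAD activity, had 2850, 2799 and 2795 on its brighter probe and 227, 222 and 217 on the other. All 4 SMAD and adaptor genes, all 8 nuclear partners and repressors and all 6 genes of SMAD and receptor turnover were detected. In this group Trim33 departed on replicate 2, at 826 against 1251 and 1124, and its spot lay in a block with many non-uniform spots. The other 5 detected single-spot pathway probes in such blocks differed by 0.393 to 1.30 combined spot errors at most, and the part of the block in the Trim33 value was not tested.

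Of 7 transcriptional targets that mark mesendoderm and its derivatives, 5 (71.4%) were detected, near the 72.7% of all named genes. Eomes had signals of 549, 597 and 484 on its brighter probe and 114, 103 and 94.8 on the other. Gsc had 106, 117 and 95.9. Lhx1 had 45.7, 35.4 and 46.5, and Sox17, an endoderm gene, had 54.6, 52.2 and 59.1. Mixl1 passed on no array, at 2.18, 2.47 and 2.29 with spot errors of 100% of the signal. T, which encodes Brachyury, passed on replicates 1 and 3, with signals of 12.8, 12.2 and 14.0 on the 3 arrays. The probes of Foxa2 disagreed, with 49.7, 38.6 and 49.3 on the one and 5.53, 2.56 and 7.58 on the other, which passed on no array. The 6 mesendoderm markers had summed signals of 695 to 831, mostly from Eomes.

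**Figure D4:**
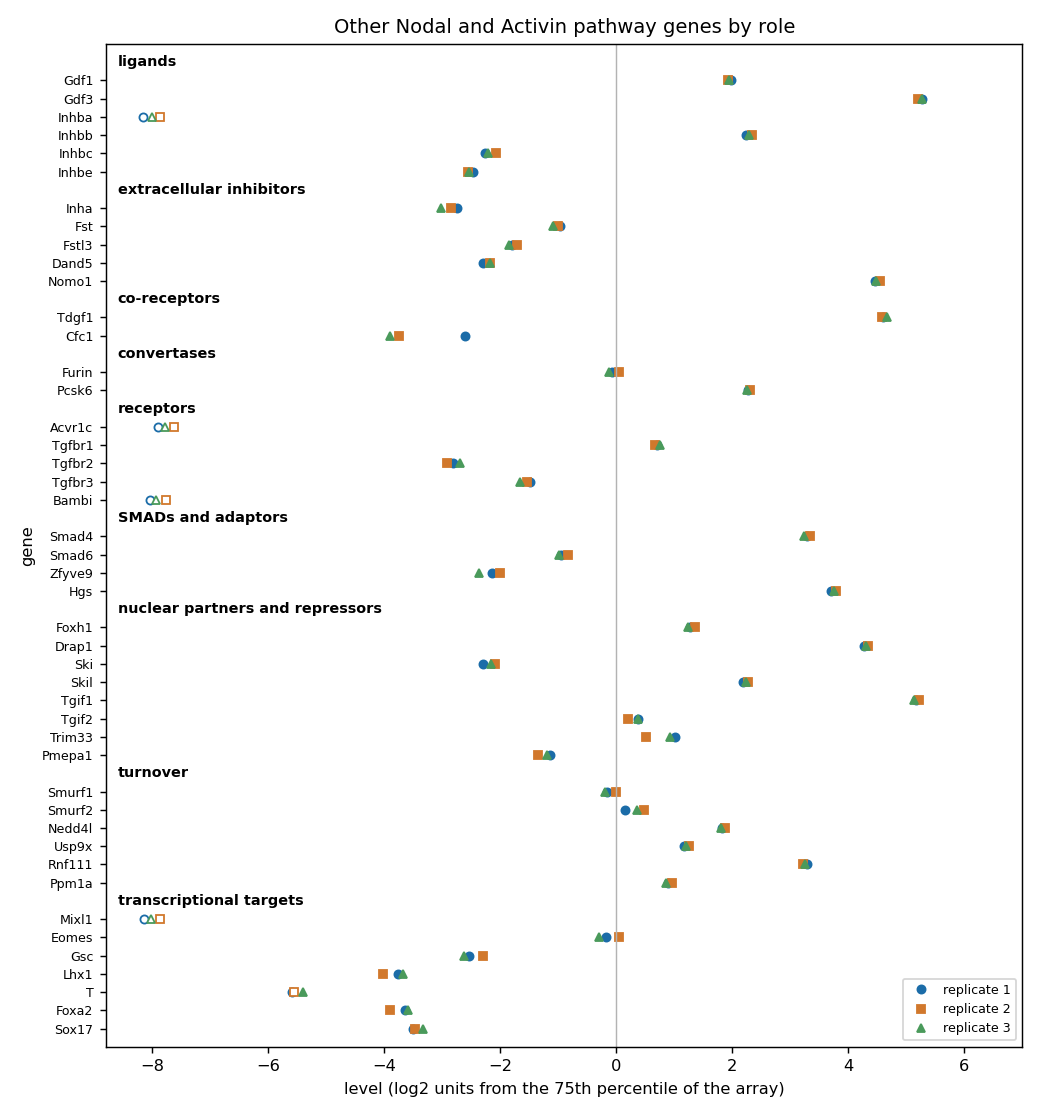
Level (log2 units from the 75th percentile of the array, horizontal axis) of the 45 other pathway genes, grouped by role, with 1 symbol per array and hollow symbols where the brightest probe was not well above background. Symbols of a gene mostly overlap, Cfc1 is apart on replicate 1, and Inhba, Acvr1c, Bambi and Mixl1 are hollow on all arrays.

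In the 45 genes 57 probes were detected, and 2 of them (Cfc1 and the dimmer probe of Tgfbr2) had a range above 1 log2 unit, against 1.86% of all detected probes. Of 56 with 1 spot, 3 differed by more than 2 combined spot errors, against 10.4% of all. For comparison, the BMP arm of the same family was detected in 13 of 17 genes (76.5%), near the 72.7% of all named genes. Of the rest, Bmp2 passed on replicates 1 and 2, Bmpr1b on replicate 1, Smad9 on replicate 2 and Grem1 on none. Smad9 had signals of 2.35, 18.8 and 2.52. Of the 16 detected probes of this arm, 1 differed by more than 2 combined spot errors, against 10.4% of all. It was a Smad1 probe, at 308, 162 and 279. Bmp4, a ligand of that arm, had signals of 1792, 1627 and 1649 on its brighter probe, and its other probe was not well above background. All 3 TGF-beta ligand genes were detected, though the dimmer of 2 Tgfb2 probes passed on replicate 3 alone, at 9.66, 6.13 and 15.7. The difference in detection between these lists and the 10 genes was not tested.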

How the data were processed

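Total RNA of 3 samples was labelled with Cy3 and hybridised to 1-colour Agilent arrays. Per the file headers, the deposited spot intensities were made with Feature Extraction 10.7.3.1 (10.7 in the submitters' processing notes), which subtracted background, removed spatial trends and replaced the lowest values by small positive ones. The deposited flags mark spots as well above background, saturated, non-uniform or outlying. The authors also deposited a table of log2 values whose normalization is not given in the sources used here. Unstated normalization can alter small differences between arrays, so this table served as an alternative only.

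Unflagged spots of a probe were averaged as log2 intensity, and the 75th percentile of the array was subtracted. Probes were named through RefSeq accessions (GRCm38.p6), which placed 27235 of 55681, and those with other identifiers were not matched. The array's grid refers to another build, so only the RefSeq windows carry coordinates. Detection on an array required the flag for well above background in 50% or more of a probe's spots. The brightest probe represented a gene. The combined spot error is the root of the summed squares of the scanner's errors of 2 arrays, after scaling. For bright probes such as those of Nodal, Lefty1 and Acvr2b the scanner's error was 10% of the signal, and it is not a spread measured on repeated spots. The number of arrays limits the precision.

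The 10 genes and all lists were chosen with earlier results of these data known. Every probe of the 10 genes was named with its values, other pathway genes by role, and genes whose probes disagreed. Of the planned pathway list, 1 gene is not reported here. A planned F test on probes with 10 spots was not run, because each of the 12 probes has 1 spot. Alternatives covered scaling, background correction (normexp, offset 50, from the raw spot medians), spots, filters, probes and replicates. Python 3.11.15 with numpy 2.4.6, pandas 2.3.3 and matplotlib 3.10.9 and R 4.3.3 with limma 3.58.1 were used, and the scripts were tested on simulated data.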

Additional observations from a re-analysis of the deposited data

How the results depend on the processing

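Detection of 9 of the 10 genes was the same under all 7 alternatives, and that of the 45 other pathway genes was between 39 and 41. The number of probes with a range above 1 log2 unit was 0 in all alternatives but one: without the filter on dim probes it was 1 of 12, and that probe was Cer1, near background on 2 arrays. The median SD of the detected genes was 0.037 to 0.056 when 1 replicate was left out and at most 0.071 otherwise. Levels depend on the reference point. With the median of the array they rose by 3.81 log2 units and with the percentile over detected probes they fell by 1.85, for all probes alike, so that the level of Acvr1b became 0.37 and that of Smad2 -0.78. With normexp and its offset of 50, detected genes moved by -0.32 to 0.99 and all probes by 0.18 in the median. Cer1 moved by 3.28 to -3.21 and its SD fell from 2.04 to 0.25. The part of the offset in these shifts was not tested. Averaging probes gave -2.87 for Acvr2a and -1.50 for Smad3. No paired analysis was possible because there is 1 group only. The alternatives of the F test were not run. Dim spots limit Cer1, Acvr1b and the dimmer probes of Acvr2a and Smad3.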
